A study of Mus musculus with 6 samples.

Results

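The amino acid transporter genes were taken by symbol alone, as every gene named Slc1a, Slc3a, Slc7a, Slc36a, Slc38a or Slc43a with a number, which gave 42 of the 54429 genes in the table. Their RNA was measured by ribodepleted RNA-seq in primary aortic EC (endothelial cells) of adult C57BL/6 wild-type mice. There were 6 libraries, 3 from EC transduced with the Meis1-OE vector, which overexpresses the transcription factor Meis1, and 3 from EC transduced with the YFP-CTRL vector, the control. Both groups started from 100000 cells per well. Transduction was ended at 48 h, cells positive for YFP, CD31 and VEC were sorted at 72 h and grown on until confluent, and RNA was taken from 300000 cells. The EC were a commercial preparation grown in a medium with serum and added glutamine, both groups carried a vector, and the RNA came from cells that had been expanded after the sort. The replicates were described as independent, but nothing states that they came from separate animals, so p-values measure only the spread between these libraries.

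Amino acids do not cross membranes freely, and solute carriers move them. Slc1 carriers bring in glutamate or small neutral amino acids with sodium, and Slc38 carriers bring in glutamine and alanine with sodium. Many Slc7 carriers are exchangers that reach the plasma membrane bound to a heavy chain of the Slc3 family, while the cationic amino acid transporters of the same family work alone. Slc36 carriers move small amino acids with protons, often out of the lysosome, and Slc43 carriers let large neutral amino acids pass along their gradient. Endothelial cells use these carriers for leucine, arginine, cystine and glutamine, and starvation for amino acids raises many of them through the transcription factor Atf4.

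The libraries held between 34176592 and 47956569 counts. Meis1 was counted 135325, 157828 and 149221 times in the Meis1-OE libraries and 39, 58 and 85 times in the YFP-CTRL libraries. Libraries are named by the letters they carry in the table. All values below are CPM (counts scaled to a common library total) after TMM normalization, which sets each total by the bulk of its genes. Library C of YFP-CTRL stood apart from A and B. The mean log2(CPM + 1) of 15 proliferation genes was between 6.42 and 6.46 in the Meis1-OE libraries, 4.20 and 5.20 in YFP-CTRL A and B, and 6.39 in YFP-CTRL C, so the calls that change without that library are given beside the members. The 10 endothelial markers were all detected and summed to between 3605 and 6246 CPM. Of the 11 smooth muscle and fibroblast markers, 8 were too low to be tested. The 11 summed to 15.8 to 17.9 CPM in Meis1-OE EC, against 34.9 to 54.2 CPM in YFP-CTRL EC. Pdgfra was the largest part outside YFP-CTRL C. It was at 11.7 to 11.9 CPM in Meis1-OE EC, against 33.3, 49.1 and 15.6 CPM in YFP-CTRL A, B and C. Acta2 was at 0.993 to 3.33 CPM in Meis1-OE EC, against 0.206, 2.18 and 19.9 CPM in YFP-CTRL A, B and C. Pdgfrb, also tested, went the other way (log2 fold change 0.55, adjusted p = 0.344 by edgeR). The part of these markers in the results was not tested. The 8 macrophage markers summed to at most 1.48 CPM, and C1qa, C1qb, Tyrobp and Adgre1 were at 0 in every library.

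The Meis1-OE libraries held nearly equal levels of the amino acid transporter genes, whereas YFP-CTRL libraries A and B held more of the main uptake carriers than YFP-CTRL library C did. Over the 42 genes the CPM summed to 1644, 1655 and 1687 in the Meis1-OE libraries. The sum was 4227 and 4717 CPM in YFP-CTRL A and B and 1652 CPM in YFP-CTRL C, which lay within the range of the Meis1-OE libraries. The surplus of A and B was carried by Slc3 (926 and 903 CPM, against 192 to 201 CPM in the other libraries), Slc7 (1797 and 1925 CPM, against 424 to 451 CPM), Slc1 (231 and 304 CPM, against 55.8 to 75.0 CPM) and Slc38 (1182 and 1485 CPM, against 814 to 851 CPM). The Slc36 and Slc43 families did not share it. The Slc36 sum was 40.9 and 43.1 CPM in A and B against 50.1 to 62.3 CPM elsewhere, and the Slc43 sum was 49.5 to 56.9 CPM in the YFP-CTRL libraries and 77.5 to 83.9 CPM in the Meis1-OE libraries. In bulk RNA, fewer cells of a type and less RNA per cell cannot be told apart.

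**Figure D1:**
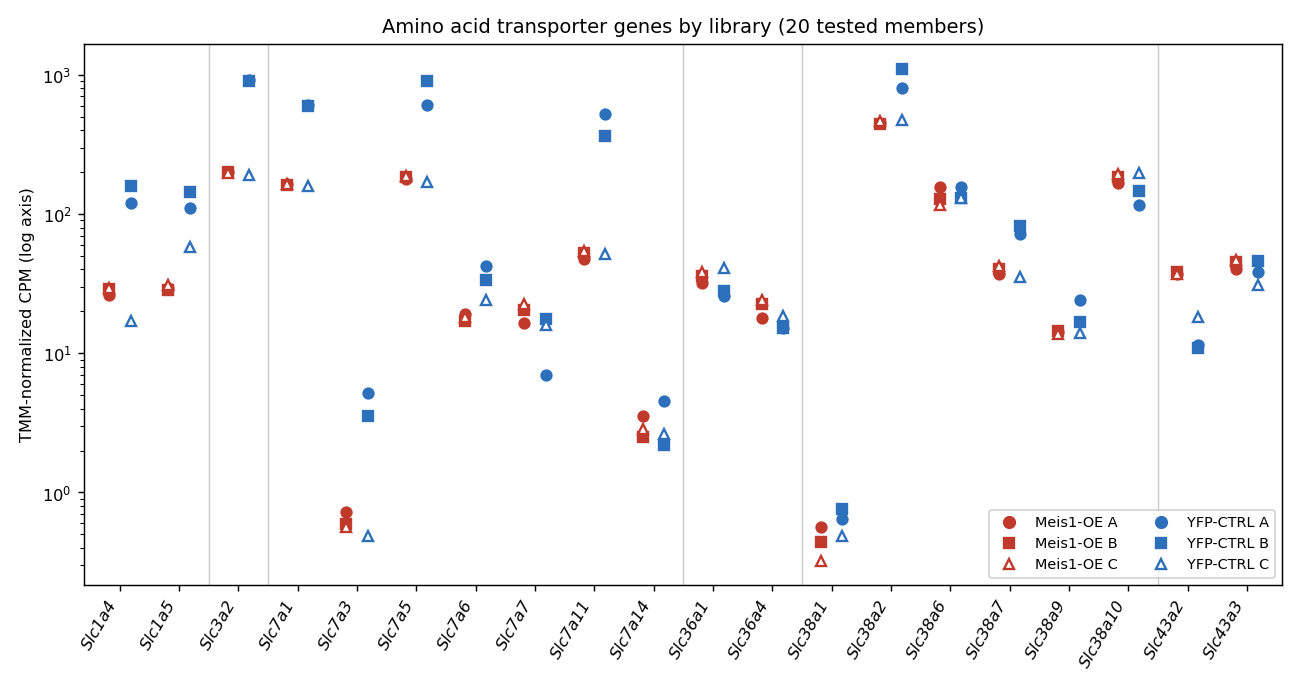
TMM-normalized CPM (log axis) of the 20 amino acid transporter genes that were tested, one point per library, red for Meis1-OE and blue for YFP-CTRL, with grey lines between families. For Slc3a2, Slc7a1, Slc7a5, Slc7a11 and Slc1a4 the points of YFP-CTRL A and B lie above the other 4, and for Slc43a2 all 3 Meis1-OE points lie above all 3 YFP-CTRL points.

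The filter on low counts kept 16065 genes, among them 20 of the 42 amino acid transporter genes (2 of 7 in Slc1, 1 of 2 in Slc3, 7 of 15 in Slc7, 2 of 4 in Slc36, 6 of 11 in Slc38 and 2 of 3 in Slc43). Of the 22 genes that were not tested, 15 never exceeded 3 counts in a library, which is treated here as the limit of detection for counting error only, and 9 of those had no count at all. The other 7 reached at most 35 counts. The light chain gene Slc7a8 was among those at or under the limit. Of the 20 tested genes 1 was higher in Meis1-OE EC, Slc43a2, and 2 were lower, Slc1a5 and Slc7a6, at an adjusted p under 0.05 in the quasi-likelihood test of edgeR, with Benjamini-Hochberg adjustment over all 16065 genes. Over all genes tested 4.14% were called higher and 2.73% were called lower. At an unadjusted p under 0.05 the counts were 2 higher and 9 lower of 20, where 12.8% and 13.4% of all genes passed. The groups did not overlap for 1 higher and 3 lower members, beside 17.2% and 15.9% of all genes. The median log2 fold change of the 20 members was -0.58 with 14 of 20 negative, and the median of all genes tested was 0.01 with 8185 positive and 7880 negative.

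These counts turned on single libraries. Without YFP-CTRL C, 4 members were called higher and 11 lower of 21 tested, and 16.5% and 15.2% of all genes were called in these directions. Each library was left out in turn, but YFP-CTRL C was singled out after its values were seen. Where C lay nearer to the Meis1-OE libraries than A and B did, leaving it out must widen the difference between the groups. The small p-values of that fit are therefore a description and not support for a difference. Without Meis1-OE library B no member was called in either direction by edgeR, where 0.701% and 0.0975% of all genes were called. No member was called without Meis1-OE C (0.766% and 0.109% of all genes) or without YFP-CTRL B (1.24% and 0.401%). Slc43a2 alone was called without Meis1-OE A (2.02% and 0.417% of all genes), and 1 member in each direction without YFP-CTRL A (3.73% and 2.63%). The count was also 1 in each direction with library totals in place of TMM (6.52% and 1.11% of all genes), with at least 10 counts required in every library (3.29% and 2.56%), and with the library letter as a replicate block (3.39% and 1.18%). DESeq2 on all 6 libraries called 1 member higher and 8 lower, beside 6.18% and 6.13% of all genes. Within families, the edgeR medians on all libraries were -1.81 for Slc1 (2 genes), -1.75 for Slc3 (1 gene), -1.48 for Slc7 (7 genes), -0.43 for Slc38 (6 genes), 0.29 for Slc36 (2 genes) and 0.83 for Slc43 (2 genes). Without YFP-CTRL C they were -2.22 for Slc1, -1.90 for Slc7, -0.61 for Slc38, 0.44 for Slc36 and 0.89 for Slc43.

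Slc43a2, a carrier that lets leucine and other large neutral amino acids pass along their gradient, was the member that edgeR called higher. The gene lies at chr11:75529915-75577575 on GRCm38, the assembly also named mm10, which the labels give as the build. Its level was 37.3, 38.5 and 37.3 CPM in libraries A, B and C of Meis1-OE, against 11.5, 10.9 and 18.2 CPM in those of YFP-CTRL. All Meis1-OE libraries were higher than all YFP-CTRL libraries, and YFP-CTRL C was the nearest to them. The means were 37.7 ± 0.726 CPM and 13.5 ± 4.03 CPM (SD, n = 3 each), a 2.78-fold difference with a log2 fold change of 1.47 (SE 0.21, 95% interval 0.99 to 1.96, adjusted p = 0.0109 by edgeR). With the proliferation score as a covariate Slc43a2 was still called (edgeR adjusted p = 0.0203), in a fit that compares Meis1-OE largely with YFP-CTRL C. It also kept its call without YFP-CTRL C (log2 fold change 1.74, adjusted p = 0.000345 by edgeR). It lost it without Meis1-OE B (adjusted p = 0.0671 by edgeR), without Meis1-OE C (0.0594) and without YFP-CTRL B (0.0520). Slc43a3, the highest of its family by mean CPM and best known as a purine nucleobase carrier, was at 40.2, 45.1 and 46.6 CPM in Meis1-OE EC, against 38.5, 45.9 and 31.2 CPM in YFP-CTRL EC, and these ranges overlapped. Its log2 fold change was 0.19 (95% interval -0.19 to 0.57).

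Slc1a5, the sodium-dependent exchanger that brings glutamine into proliferating cells, lies at chr7:16781334-16798274. It was at 29.5, 28.4 and 31.0 CPM in libraries A, B and C of Meis1-OE, and 110, 145 and 57.8 CPM were found in those of YFP-CTRL. Here YFP-CTRL C was lower than A and B but still above every Meis1-OE library. Slc1a5 fell in Meis1-OE EC from 104 ± 43.8 CPM to 29.6 ± 1.28 CPM (SD, n = 3 each), with a log2 fold change of -1.81 (SE 0.31, 95% interval -2.53 to -1.10, adjusted p = 0.0189 by edgeR). The call was lost without any one of the Meis1-OE libraries (adjusted p = 0.0848, 0.111 and 0.0955 by edgeR without A, B and C) and without YFP-CTRL B (0.0659), and the adjusted p was 0.0755 with the proliferation score as a covariate. Slc1a4, the related exchanger of alanine, serine and cysteine, was at 26.1, 28.9 and 29.3 CPM in Meis1-OE EC, against 121, 158 and 17.1 CPM in YFP-CTRL EC. Its YFP-CTRL library C lay below all Meis1-OE libraries, and the groups overlapped. The fitted log2 fold change of Slc1a4 was -1.81 (SE 0.67, adjusted p = 0.144 by edgeR), equal in size to that of Slc1a5 with a wider interval, from -3.38 to -0.24. For Slc1a4 it was -2.33 without YFP-CTRL C (adjusted p = 0.000395 by edgeR) and 0.050 with the covariate (adjusted p = 0.978), so the call and the sign both depended on these choices. Slc1a5 was at -2.12 without YFP-CTRL C (adjusted p = 0.000537 by edgeR).

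**Figure D2:**
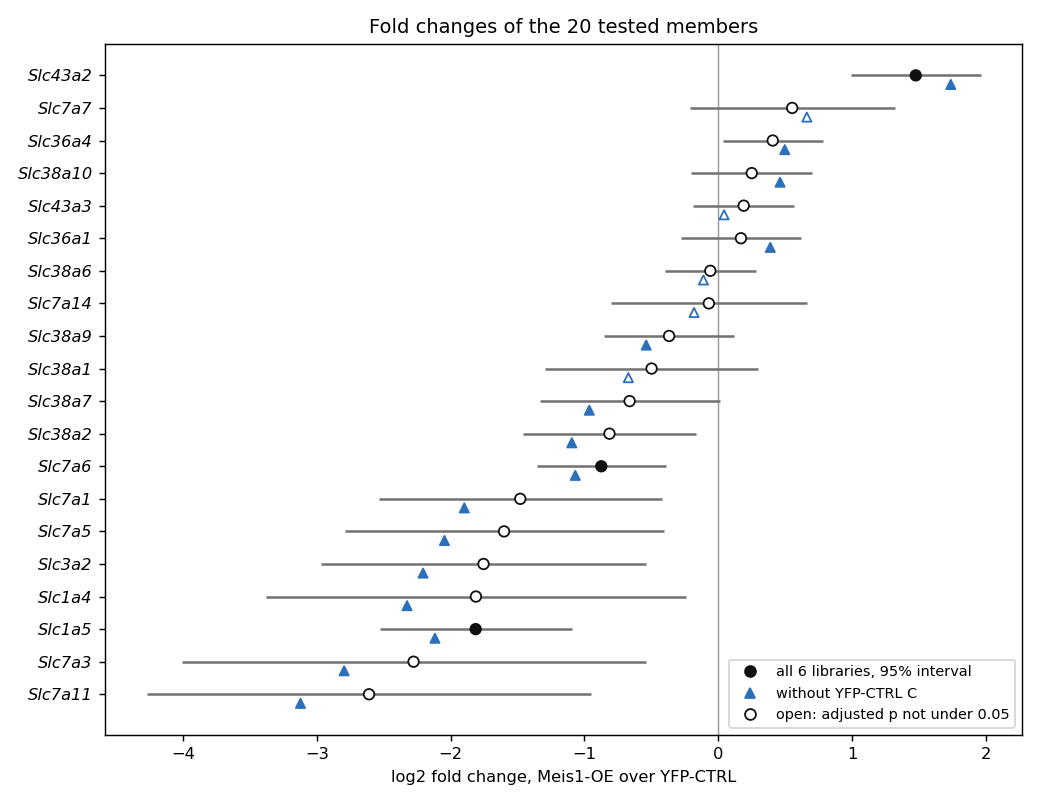
log2 fold change of Meis1-OE over YFP-CTRL for the 20 tested amino acid transporter genes, with circles and 95% intervals for all 6 libraries and triangles for the fit without YFP-CTRL C. Filled symbols have an adjusted p under 0.05 in edgeR: 3 of the circles and 15 of the triangles are filled.

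Slc3a2, the heavy chain of CD98 that carries its Slc7 partners to the plasma membrane, was at nearly the same level in 4 of the 6 libraries. It was at 200, 201 and 198 CPM in the Meis1-OE libraries, at 925 and 903 CPM in YFP-CTRL A and B, and at 192 CPM in YFP-CTRL C. Library C was thus slightly under the 3 Meis1-OE libraries, and the groups overlapped. The log2 fold change over all libraries was -1.75 (SE 0.52, 95% interval -2.97 to -0.54, adjusted p = 0.0883 by edgeR). DESeq2 called it on all libraries (adjusted p = 0.00267). Without YFP-CTRL C, the control library nearest to Meis1-OE, the difference must widen, and edgeR called it there (log2 fold change -2.21, adjusted p = 0.000168).

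Slc7a5, the light chain that pairs with Slc3a2 to exchange leucine for glutamine, was also highest in YFP-CTRL A and B. Its level was 180, 184 and 189 CPM in the Meis1-OE libraries, 607 and 900.3 CPM in YFP-CTRL A and B, and 171 CPM in YFP-CTRL C. Its log2 fold change was -1.60 (SE 0.51, 95% interval -2.79 to -0.41, adjusted p = 0.105 by edgeR), and -2.05 without YFP-CTRL C (adjusted p = 0.000886 by edgeR). Slc7a1, the main carrier of arginine and lysine, which works without a heavy chain, was at 163, 163 and 164 CPM in Meis1-OE EC, against 606, 601 and 158 CPM in YFP-CTRL EC. The 3 Meis1-OE libraries differed by a factor of 1.004 and the 3 YFP-CTRL libraries by a factor of 3.83. Slc7a1 had a log2 fold change of -1.48 (SE 0.45, adjusted p = 0.0952 by edgeR), or -1.90 without YFP-CTRL C (adjusted p = 0.000203 by edgeR).

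Slc7a11, the light chain that imports cystine in exchange for glutamate and feeds glutathione synthesis, was at 47.8, 52.7 and 53.8 CPM in Meis1-OE EC, against 525, 366 and 51.3 CPM in YFP-CTRL EC. YFP-CTRL C lay within the Meis1-OE range, whose mean was 1.002 times its level, and YFP-CTRL A was 10.2 times YFP-CTRL C. Its log2 fold change, -2.61 (SE 0.71, 95% interval -4.27 to -0.95, adjusted p = 0.0719 by edgeR), was the lowest of the 20. Without C it was -3.12 (adjusted p = 0.000295 by edgeR). Slc7a3, a second arginine carrier at low level, was at 0.722, 0.595 and 0.561 CPM in Meis1-OE EC, against 5.15, 3.55 and 0.484 CPM in YFP-CTRL EC. Its log2 fold change of -2.28 (SE 0.74) had an adjusted p of 0.110 by edgeR. It was -2.80 without YFP-CTRL C (adjusted p = 0.00119 by edgeR), DESeq2 called it on all libraries (adjusted p = 0.00757), and its reads could be shared with the overlapping gene Snx12, since no source says that reads were counted by strand.

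Of the 7 tested Slc7 genes 6 had a negative log2 fold change. DESeq2 called 5 lower on all libraries, beside 6.13% of all genes, among them Slc7a1 (adjusted p = 0.00612), Slc7a5 (0.00700) and Slc7a11 (0.0208). Slc7a6, a light chain that exchanges cationic for neutral amino acids, was the only one that edgeR called lower on all libraries. It lies at chr8:106168219-106198714 and was at 19.3, 17.2 and 18.3 CPM in Meis1-OE EC, against 42.5, 33.6 and 24.2 CPM in YFP-CTRL EC. The groups did not overlap, and YFP-CTRL C was again the lowest of its group. The means were 18.2 ± 1.03 CPM and 33.4 ± 9.14 CPM (SD, n = 3 each), with a log2 fold change of -0.87 (SE 0.21, 95% interval -1.35 to -0.39) and an adjusted p of 0.0496 by edgeR, close to the threshold. The call was lost when any single library other than YFP-CTRL C was left out (adjusted p from 0.0753 to 0.226 by edgeR), with library totals in place of TMM (0.0892), with a minimum of 10 counts in every library (0.0548), with the library letter as a replicate block (0.0680), and with the proliferation covariate (log2 fold change -0.40, adjusted p = 0.119). Without YFP-CTRL C it was -1.07 (adjusted p = 0.00197 by edgeR). Its close relative Slc7a7 was at 16.4, 20.5 and 22.7 CPM in Meis1-OE EC, against 7.04, 17.6 and 15.9 CPM in YFP-CTRL EC. YFP-CTRL A alone was low for Slc7a7, whose annotation overlaps that of Oxa1l, and the log2 fold change was 0.55 (95% interval -0.21 to 1.32, adjusted p = 0.325 by edgeR). Slc7a14, whose product stays inside the cell, was under 5 CPM in all libraries and had a log2 fold change of -0.07 (95% interval -0.80 to 0.66).

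Slc3a2 and its light chains were compared per kb of exon, since levels of different genes can be set side by side only per length. Slc3a2 was at 67.7, 67.9 and 66.9 CPM per kb in the Meis1-OE libraries, and the light chains Slc7a5, Slc7a6, Slc7a7, Slc7a8, Slc7a10 and Slc7a11 summed to 67.9, 70.7 and 73.5 CPM per kb. In YFP-CTRL A, B and C, Slc3a2 was at 313, 305 and 64.9 CPM per kb and the light chains at 234, 305 and 66.8 CPM per kb. Heavy chain and light chain RNA therefore stood in a ratio between 0.909 and 1.34 in all 6 libraries, although Slc3a2 itself was 4.82 times as high in YFP-CTRL A as in YFP-CTRL C. Slc7a5 made up most of the light chain RNA in every library, from 72.9% to 83.9%. The make-up of the remainder differed between libraries. Slc7a11 was 20% and 10.7% of light chain RNA in YFP-CTRL A and B and 6.27% to 6.83% in the other 4 libraries, and Slc7a7 was 1.33% and 2.54% in YFP-CTRL A and B and 10.5% to 13.6% in the others. These shares are descriptions of RNA and were not tested.

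**Figure D3:**
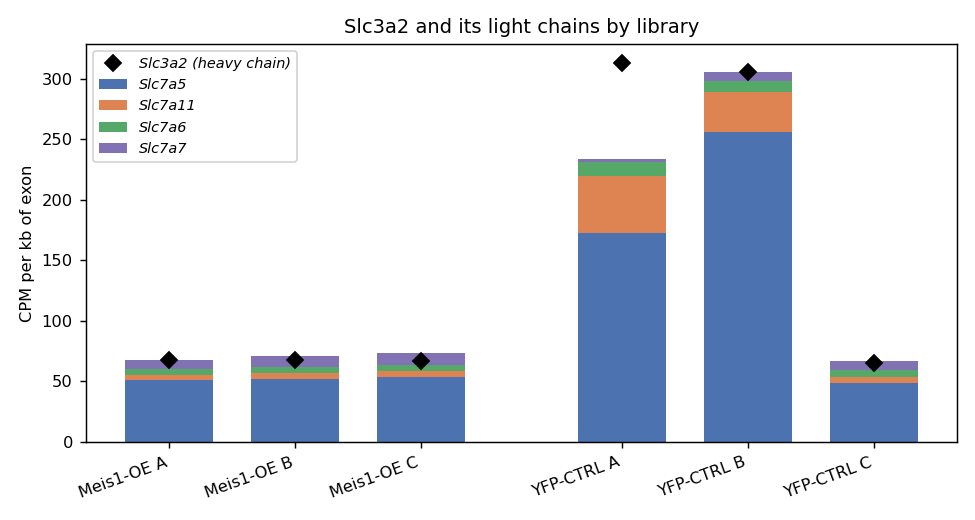
CPM per kb of exon in each library, with stacked bars for the light chains Slc7a5, Slc7a11, Slc7a6 and Slc7a7 and a diamond for the heavy chain Slc3a2. Bars and diamonds lie between 64.9 and 73.5 CPM per kb in the Meis1-OE libraries and YFP-CTRL C and between 234 and 313 CPM per kb in YFP-CTRL A and B.

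Slc38a2, the sodium-coupled carrier of glutamine and alanine that is induced when amino acids run short, was the most abundant member per kb of exon in the Meis1-OE libraries and in YFP-CTRL C (96.1 to 102 CPM per kb), ahead of Slc3a2, Slc7a5, Slc38a10 and Slc7a1 in that order. In YFP-CTRL A and B Slc3a2 was ahead of it. Its level was 454, 444 and 464 CPM in Meis1-OE EC, against 811, 1110 and 473 CPM in YFP-CTRL EC. The groups did not overlap, but Meis1-OE C and YFP-CTRL C lay next to each other. The log2 fold change was -0.81 (SE 0.28, 95% interval -1.46 to -0.16, adjusted p = 0.122 by edgeR), and DESeq2 gave an adjusted p of 0.0474. Slc38a7, a lysosomal carrier of glutamine and asparagine, was at 37.0, 40.2 and 42.1 CPM against 72.2, 81.5 and 35.2 CPM, with YFP-CTRL C the lowest library of all (log2 fold change -0.66, adjusted p = 0.196 by edgeR). Slc38a9, the lysosomal arginine sensor of mTORC1, was at 14.2, 14.4 and 13.8 CPM against 24.1, 16.8 and 13.9 CPM (log2 fold change -0.37, 95% interval -0.85 to 0.12, adjusted p = 0.302 by edgeR). For both genes the ranges of the groups overlapped. Without YFP-CTRL C all 3 were called lower by edgeR, with log2 fold changes of -1.09 for Slc38a2 (adjusted p = 0.00335), -0.96 for Slc38a7 (0.00143) and -0.54 for Slc38a9 (0.0399).

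Slc38a10 and Slc38a6, less studied members of the family, were not highest in YFP-CTRL A and B. Slc38a10 was at 167, 185 and 194 CPM in Meis1-OE EC, against 116, 146 and 198 CPM in YFP-CTRL EC (log2 fold change 0.25, 95% interval -0.20 to 0.70), with A and B the lowest rather than the highest libraries. Slc38a6 was at 116 to 156 CPM in Meis1-OE EC, against 130 to 157 CPM in YFP-CTRL EC (log2 fold change -0.06, 95% interval -0.40 to 0.28), and its annotation overlaps that of Trmt5. Slc38a1, a glutamine carrier better known from neurons, stayed under 1 CPM in all libraries (log2 fold change -0.50, 95% interval -1.30 to 0.30). Among the proton-coupled Slc36 genes, Slc36a1, which exports small amino acids from lysosomes, was the higher, at 32.2, 36.2 and 38.1 CPM in Meis1-OE EC, against 25.8, 27.9 and 40.9 CPM in YFP-CTRL EC. Its highest library was YFP-CTRL C, and its log2 fold change was 0.17 (95% interval -0.28 to 0.62, adjusted p = 0.615 by edgeR). Slc36a4, a proline and tryptophan carrier of the same family, ranged from 18 to 24.2 CPM in the Meis1-OE libraries and from 15.1 to 18.5 CPM in the YFP-CTRL libraries, with a small overlap (log2 fold change 0.41, adjusted p = 0.163 by edgeR). Without YFP-CTRL C, edgeR called Slc38a10 (log2 fold change 0.46, adjusted p = 0.0377), Slc36a1 (0.39, adjusted p = 0.0348) and Slc36a4 (0.50, adjusted p = 0.0369) higher.

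The order of libraries itself was counted, a measure chosen after the values were seen and given as a description. YFP-CTRL A and B were the highest pair of the 6 libraries for 12 of the 20 members, or 60%, and for 20.6% of all genes tested. They were the lowest pair for 4 members, or 20%, and for 24.6% of all genes tested. The median coefficient of variation of the 20 members was 6.41% within Meis1-OE and 39.4% within YFP-CTRL, where the medians of all genes tested were 8.68% and 20.7%. The proliferation genes moved with this order in the opposite direction. YFP-CTRL A and B were the lowest pair for 15 of 15 of them, and Mki67 was at 63.8 and 205 CPM in A and B, 589 CPM in YFP-CTRL C and 628 to 672 CPM in Meis1-OE EC. With the proliferation score as a covariate in edgeR, the median log2 fold change of the 20 members was -0.10, with 1 called higher and 0 lower, beside 2.41% and 1.98% of all genes. The log2 fold changes became -0.27 for Slc3a2 (adjusted p = 0.771), -0.31 for Slc7a11 (0.738), -0.42 for Slc7a5 (0.748) and -0.23 for Slc7a1 (0.771). The score set YFP-CTRL A and B (4.20 and 5.20) apart from the Meis1-OE libraries (6.42 to 6.46) and YFP-CTRL C (6.39). This fit therefore compares Meis1-OE largely with YFP-CTRL C, and a gene high only in A and B must shrink in it. The part of proliferation in these results cannot be told from it and was not tested.

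A list of 30 amino acid response genes, which are induced through Atf4 when amino acids are scarce or the endoplasmic reticulum is stressed, was also highest in YFP-CTRL A and B. Of the 30, 29 were tested. The mean log2(CPM + 1) of the list was 5.81, 5.92 and 5.93 in Meis1-OE EC, 7.27 and 7.41 in YFP-CTRL A and B, and 5.64 in YFP-CTRL C. YFP-CTRL A and B were the highest pair for 28 of the 29 (96.6%, beside 20.6% of all genes tested). The gene Atf4 itself was at 185, 193 and 196 CPM in Meis1-OE EC, against 351, 369 and 189 CPM in YFP-CTRL EC (log2 fold change -0.66, adjusted p = 0.139 by edgeR). All 29 log2 fold changes were negative, with a median of -1.05, yet edgeR called 1 lower, Phgdh, and 0 higher. At an unadjusted p under 0.05, 21 were lower and 0 higher. Of all genes, 2.73% were called lower and 13.4% were lower at an unadjusted p under 0.05. Phgdh, the first enzyme of serine synthesis, fell from 551, 526 and 206 CPM in YFP-CTRL EC to 156, 153 and 156 CPM in Meis1-OE EC (log2 fold change -1.46, SE 0.34, adjusted p = 0.0479 by edgeR), and its adjusted p reached 0.201 when single libraries were left out. Without YFP-CTRL C, 26 of the 29 were called lower by edgeR, beside 15.2% of all genes. None was when the proliferation score was a covariate (1.98% of all genes). DESeq2 on all libraries called 11 lower, beside 6.13% of all genes.

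**Figure D4:**
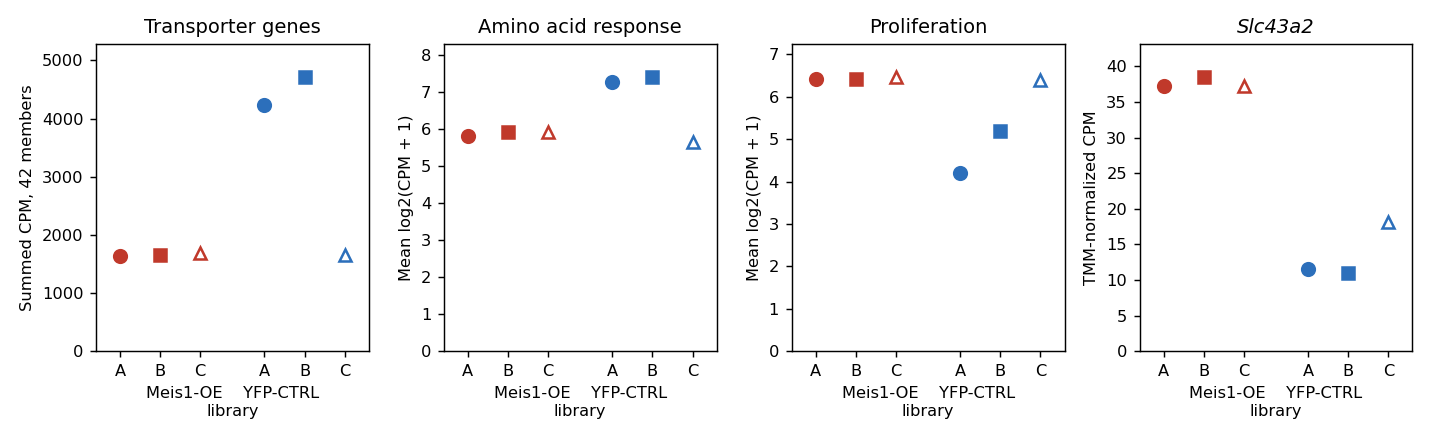
Each panel shows one point per library: the summed CPM of the 42 amino acid transporter genes, the mean log2(CPM + 1) of the amino acid response genes and of the proliferation genes, and the CPM of Slc43a2. YFP-CTRL A and B are high in the first and second panels (4227 and 4717 CPM summed) and low in the third, YFP-CTRL C lies near the Meis1-OE libraries in these panels, and Slc43a2 is lower in all 3 YFP-CTRL libraries.

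Among genes that report amino acid supply to mTORC1, YFP-CTRL A and B were the highest pair for 10 of 33 tested (30.3%, beside 20.6% of all genes). They were the lowest pair for 9 (27.3%, beside 24.6% of all genes). Of the 33, edgeR called 1 higher, Sesn3, and 0 lower, where 4 and 5 had an unadjusted p under 0.05 and DESeq2 called 2 and 3. Of all genes, 4.14% and 2.73% were called by edgeR, 12.8% and 13.4% had an unadjusted p under 0.05 and 6.18% and 6.13% were called by DESeq2. Their median log2 fold change was 0.03, and Sesn2 belongs to this list and to the previous one. Sesn3, a stress-induced inhibitor of mTORC1 signalling, rose from 14.5, 13.4 and 15 CPM in YFP-CTRL EC to 22.4, 28 and 28.2 CPM in Meis1-OE EC (log2 fold change 0.88, adjusted p = 0.0153 by edgeR), and its adjusted p reached 0.114 when single libraries were left out. Of 16 tested amino acid carriers of other families none was called by edgeR in either direction, 3 higher and 3 lower had an unadjusted p under 0.05, and DESeq2 called 1 higher and 1 lower. Their median log2 fold change was 0.22, with 11 positive and 5 negative. YFP-CTRL A and B were the highest pair for 3 of the 16 (18.8%, beside 20.6% of all genes tested). They were the lowest pair for 6 (37.5%, beside 24.6% of all genes tested). The glycine transporter Slc6a9, picked out after its values were seen, was among those highest in YFP-CTRL A and B. It was at 19.1, 19 and 17.8 CPM in Meis1-OE EC, against 155, 135 and 10.1 CPM in YFP-CTRL EC (log2 fold change -2.43, adjusted p = 0.119 by edgeR).

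The RefSeq promoter table, in build GRCm38.p6, held 31 of the 42 members, each as a window from 250 bases before to 50 bases after a transcription start, and 22 windows belonged to tested members. They were searched on both strands for TGATGNAA, the core of the C/EBP-ATF response element to which Atf4 and its partners bind. It was found in 4 of the 22 windows of tested members (18.2%), in 2.33% of 13193 windows of all genes tested, in 3.97% of all 32851 windows, and in 9 of 27 windows (33.3%) of the tested amino acid response genes. The 4 windows belonged to Slc7a11, Slc1a4 and, with overlapping windows, Slc7a7. Slc7a11 and Slc1a4 are printed because both were high in YFP-CTRL A and B and hold the motif, and they were chosen after their values were seen. Of the 12 members highest in YFP-CTRL A and B, 8 are in the table, and the other 6 of these (Slc3a2, Slc7a1, Slc7a6, Slc38a2, Slc38a7 and Slc38a9) hold no match. Slc43a2 and Slc7a6 are printed as called members, each with the upstream one of its windows, and none of their windows holds a match. Sequences run 5′ to 3′ on the gene's strand with the matches in capitals.
Slc7a11, chr3:50443564-50443863, minus strand: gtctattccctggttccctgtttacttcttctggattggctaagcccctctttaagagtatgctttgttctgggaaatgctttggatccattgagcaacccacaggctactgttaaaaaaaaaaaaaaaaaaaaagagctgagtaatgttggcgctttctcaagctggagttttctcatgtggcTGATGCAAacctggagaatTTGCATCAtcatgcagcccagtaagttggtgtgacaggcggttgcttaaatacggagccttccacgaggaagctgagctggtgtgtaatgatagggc
Slc1a4, chr11:20332664-20332963, minus strand: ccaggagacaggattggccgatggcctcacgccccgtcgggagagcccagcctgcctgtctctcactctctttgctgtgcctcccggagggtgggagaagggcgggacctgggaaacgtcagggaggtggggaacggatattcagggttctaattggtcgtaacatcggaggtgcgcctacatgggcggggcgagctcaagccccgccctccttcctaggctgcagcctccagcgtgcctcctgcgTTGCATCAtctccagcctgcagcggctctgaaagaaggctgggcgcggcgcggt
Slc43a2, chr11:75531444-75531743, plus strand: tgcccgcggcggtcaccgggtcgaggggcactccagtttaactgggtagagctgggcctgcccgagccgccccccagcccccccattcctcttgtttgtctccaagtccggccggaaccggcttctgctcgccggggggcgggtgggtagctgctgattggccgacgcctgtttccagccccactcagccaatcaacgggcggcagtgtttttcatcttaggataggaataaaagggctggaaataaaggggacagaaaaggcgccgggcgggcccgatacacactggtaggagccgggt
Slc7a6, chr8:106168604-106168903, plus strand: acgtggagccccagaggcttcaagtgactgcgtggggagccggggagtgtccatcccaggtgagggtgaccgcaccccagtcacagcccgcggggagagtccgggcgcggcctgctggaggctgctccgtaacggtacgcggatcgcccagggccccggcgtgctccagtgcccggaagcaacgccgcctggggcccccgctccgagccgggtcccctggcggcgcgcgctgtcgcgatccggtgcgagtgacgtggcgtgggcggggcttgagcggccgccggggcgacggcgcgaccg

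Slc7a11 holds the motif on both strands, starting 66 and 47 bases before the start site, and Slc1a4 holds it once, 4 bases before. Slc7a7, which holds it too, was not high in YFP-CTRL A and B. The E-box CACGTG was in 3 of the 22 windows (13.6%), in 9.76% of windows of all genes tested and in 7.15% of all windows. The Meis core TGACAG was in 9 (40.9%), beside 16.5% and 19.2%. These 9 windows belonged to Slc7a1, Slc7a7, Slc7a11, Slc7a14, Slc36a1 and Slc36a4, some of them with several windows. The antioxidant response element core TGACNNNGC was in 5 (22.7%), beside 14.1% and 12.4%. TGACAG and TGACNNNGC can overlap where TGACAG is followed by any base and GC, as in Slc36a1. A match to a few letters describes the sequence and is not a measured binding site, and several windows of a single gene overlap.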

How the data were processed

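Ribodepleted RNA-seq of 6 libraries, 3 Meis1-OE and 3 YFP-CTRL, was analysed. Estimated counts per gene were deposited by the authors in raw form, in a table of 54429 symbols, and the genome build per the labels is mm10. The aligner, counter and annotation are not given in the sources used here. Between 7767 and 8411 values per library were not whole numbers. Among the members they occurred in all 6 libraries for Slc3a2, Slc7a11, Slc38a6 and Slc7a14 (tolerance 0.01), so reads could have been split between features there. Counts were rounded. Groups came from the labels, which number the replicates, while the table carries letters that no label explains.

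The main analysis used edgeR 4.0.16 under R 4.3.3 (TMM, filterByExpr by group, quasi-likelihood test, two-sided, biological coefficient of variation 0.233), with limma 3.58.1 loaded by it, and DESeq2 1.42.0 as an alternative. All 16065 genes passing the filter were fitted and the Benjamini-Hochberg adjustment, with a threshold of 0.05, ran over all of them. Standard errors were derived from the F statistic and 95% intervals from the degrees of freedom of the fit. The smallest two-sided exact permutation p for 3 against 3 is 0.1, so no permutation test was run on single genes and all gene p-values come from the fit across genes. Totals were 34176592 to 47956569 counts, and the counting error of a gene depends on its own count, so it is large for members near the floor of 3 counts. Exon lengths by symbol came from a GENCODE annotation of build NCBIM37 and served only for levels per kb. Gene positions and promoters came from RefSeq GRCm38.p6. Plots were made in Python 3.11.15 with matplotlib 3.10.9.

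Members and lists were chosen with earlier results of these data known. Values per library were given by rule for every called member, the highest of each family by mean CPM, and Slc3a2, Slc7a5, Slc7a1, Slc7a11, Slc1a5, Slc38a2 and Slc38a9. From the lists, genes past the threshold were named, at most 3 in each direction, and promoters for called members in the promoter table, of which Slc1a5 is not one. Other genes given with values per library (Slc1a4, Slc7a3, Slc7a7, Slc38a7, Slc38a10, Atf4, Mki67, Slc6a9, Pdgfra, Acta2) were added after their values were seen. Of the 10 endothelial markers edgeR called 1 higher (Cldn5) and 1 lower (Tek). At an unadjusted p under 0.05, 1 was higher and 3 were lower. DESeq2 called 1 higher and 3 lower (Cdh5, Kdr and Tek). In the smooth muscle and macrophage lists edgeR called none of 3 and 2 tested, where 1 and 2 had an unadjusted p under 0.05 and DESeq2 called 1 and 0. Of the 15 proliferation genes edgeR called none, 2 had an unadjusted p under 0.05 and DESeq2 called 1. Of all genes, edgeR called 4.14% higher and 2.73% lower, and DESeq2 called 6.18% and 6.13%. At an unadjusted p under 0.05 the shares were 12.8% and 13.4%. The alternatives tried were DESeq2, a robust fit, library totals or DESeq2's size factors for scaling, no filter or a minimum of 10 counts in every library, each library left out, the letter as a replicate block and the proliferation score as a covariate.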

Additional observations from a re-analysis of the deposited data

How the results depend on the processing

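The 20 tested members were refitted under 14 alternatives each. Of these 280 values, 232 kept their direction and their side of the threshold, 19 passed it, 17 lost it and 12 changed sign. The count of members called higher was 1, and 0 to 4 with single libraries left out. The count called lower was 2. It was 1 with library totals, 1 with at least 10 counts in every library, 8 with DESeq2, 0 with the proliferation score as a covariate, and 0 to 11 with single libraries left out. Over all genes, 665 higher and 438 lower became 1048 and 179 with library totals, 1124 and 1115 with DESeq2, and 115 to 2717 and 16 to 2498 with single libraries left out, the highest without YFP-CTRL C and the lowest without Meis1-OE B. The proliferation covariate left 387 genes higher. Library totals moved the median log2 fold change of all genes to 0.15, and the share of higher among all calls from 60.3% to 85.4%. That share was 50.2% with DESeq2, 74.2% with the replicate block and 52.1% to 87.8% with single libraries left out. Values that changed sign with the covariate were 0.050 for Slc1a4, 0.37 for Slc7a14, -0.17 for Slc36a1, 0.087 for Slc38a6, 0.092 for Slc38a9 and -0.13 for Slc38a10. With library totals Slc7a14 was at 0.063 and Slc38a6 at 0.084. With single libraries left out Slc7a14 ran from -0.26 to 0.29 and Slc38a6 from -0.18 to 0.032. None of these 6 genes was called on all libraries. The cause of these changes was not tested.

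With the library letter as a replicate block, 1 member was lower and 189 genes in all were lower, and 544 were higher. Deviations from the group means correlated by 0.262 between the A libraries, 0.174 between the B libraries and 0.084 between the C libraries, and Meis1-OE C correlated best with YFP-CTRL B (0.248), so the letters were not taken as pairs. For Slc38a1, under 1 CPM in every library, and for the 22 members not tested, a difference was not detectable at this depth unless large.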
